A study of Mus musculus with 24 samples.

Results

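The chromatin remodeler subunit ARID1B was mapped together with FOXP1 and TCF7L2, the 3 transcriptional regulators (TRs) considered here, by ChIP-seq in the cortex of mouse embryos at E15.5 and, 3 days later, at E18.5 (embryonic days). BCL11A and TBR1, which the study also mapped, were not analysed here, so ARID1B-alone below means free of FOXP1 and TCF7L2 peaks and not of every TR. The loci described here are the distal ARID1B peaks on the 19 autosomes where ARID1B was called at both stages and neither FOXP1 nor TCF7L2 was called at either stage. A peak was distal if no base of it lay in the 2000 bp upstream of an annotated transcription start site (TSS). Of 71442 ARID1B peaks at E15.5, 70709 were autosomal, 51752 of those were distal, 38817 of those overlapped an E18.5 ARID1B peak, and 9936 of those were free of FOXP1 and TCF7L2 peaks. These 9936 ARID1B-alone loci made up 19.2% of the distal autosomal ARID1B peaks at E15.5 (95% Wilson interval 18.9–19.5) and 25.6% of those kept at E18.5. The first share rests on the peak thresholds: it was 5.57% with ARID1B peaks limited to a −log10 p of at least 15 and 50.6% with FOXP1 and TCF7L2 peaks so limited. Membership was decided by the presence and absence of peaks in the 6 lists, and the loci were selected on it, so peak heights and overlaps in those lists are given as a description and were not tested.

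All tissue was wild type (WT) cortex, from mice kept on a CD1 background, with no allele or treatment differing between groups. Each TR and stage had 2 ChIP and 2 input libraries, 24 libraries in all. The study first called peaks per replicate as a quality check and then on merged replicates, and only the merged lists, 1 per TR and stage, were used here. No spread between replicates was therefore available and no test was run between stages, and intervals cover counting error over peaks that are not independent of their neighbours. The labels name the third TR TCF4, while the study describes an antibody to TCF7L2, the Wnt pathway factor that shares that alias, and the name TCF7L2 is used here. Cortex is a mixture of cell types, and a smaller peak from fewer cells of a type cannot be told apart from less binding per cell. Peak lists hold no RNA levels, so the tissue label was not checked against expression of marker genes.

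ARID1B is an AT-rich interaction domain subunit of the BAF (SWI/SNF) complex, which uses ATP to slide and evict nucleosomes, and its heterozygous loss causes a neurodevelopmental disorder in people. BAF complexes are found both at promoters and at distal enhancers, where sequence-specific factors with short DNA motifs are thought to help position them. Among such factors in the embryonic cortex are basic helix-loop-helix (bHLH) proteins such as the NEUROD and NEUROG proneural factors, which bind E-boxes, and the nuclear factor I (NFI) proteins.

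The sequences below are 200 bp windows centred on E15.5 ARID1B summits, on the plus strand of GRCm38 (mm10), from the RefSeq genome file for GRCm38.p6. The first 3 are among the strongest loci and show the E-boxes that recurred at them, and at Trim52 and Erbb4 also an NFI half-site. They lay in intergenic sequence 103 kb upstream of Kcnh7, a potassium channel gene (chr2:63287350-63287549), in intergenic sequence 1223 kb downstream of Trim52 (chr14:107329385-107329584), and in an intron of Erbb4, a neuregulin receptor gene (chr1:68886892-68887091). Capitals mark matches on either strand to the E-boxes CATCTG and CAGCTG and to the NFI half-site TTGGCA.
Kcnh7 locus: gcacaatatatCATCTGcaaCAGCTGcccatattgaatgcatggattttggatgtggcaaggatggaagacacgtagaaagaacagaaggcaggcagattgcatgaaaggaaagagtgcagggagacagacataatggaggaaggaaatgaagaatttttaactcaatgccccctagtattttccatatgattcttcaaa
Trim52 locus: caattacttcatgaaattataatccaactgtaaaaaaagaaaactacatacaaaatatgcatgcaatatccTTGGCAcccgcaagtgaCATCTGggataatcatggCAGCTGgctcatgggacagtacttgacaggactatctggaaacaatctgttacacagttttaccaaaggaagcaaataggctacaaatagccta
Erbb4 locus: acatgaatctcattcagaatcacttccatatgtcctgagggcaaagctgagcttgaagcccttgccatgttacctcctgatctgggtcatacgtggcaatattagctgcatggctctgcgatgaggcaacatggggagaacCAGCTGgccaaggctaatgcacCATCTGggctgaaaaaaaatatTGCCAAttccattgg

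The next 3 hold the rarer motifs. In an intron of Pcdh9, a protocadherin gene (chr14:93381307-93381506), capitals mark an E-box of each kind and a 20-letter match to the CTCF consensus with at most 4 mismatches. In intergenic sequence 575 kb downstream of Eepd1 (chr9:26058079-26058278), capitals mark the CTCF match only, whose letters include an E-box CATCTG. In an intron of Tle4, a corepressor gene of deep-layer neurons (chr19:14485278-14485477), capitals mark only the reverse complement of the RFX motif GTTGCCATG, and an E-box CATCTG and an NFI half-site on this window are left in lower case.
Pcdh9 locus: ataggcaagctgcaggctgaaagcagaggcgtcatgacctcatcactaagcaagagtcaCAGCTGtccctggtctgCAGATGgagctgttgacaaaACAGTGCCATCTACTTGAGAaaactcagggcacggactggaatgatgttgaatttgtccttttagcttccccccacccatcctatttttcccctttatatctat
Eepd1 locus: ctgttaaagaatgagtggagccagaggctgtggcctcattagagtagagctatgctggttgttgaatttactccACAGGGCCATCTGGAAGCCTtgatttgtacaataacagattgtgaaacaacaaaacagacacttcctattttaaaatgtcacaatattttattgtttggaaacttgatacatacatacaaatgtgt
Tle4 locus: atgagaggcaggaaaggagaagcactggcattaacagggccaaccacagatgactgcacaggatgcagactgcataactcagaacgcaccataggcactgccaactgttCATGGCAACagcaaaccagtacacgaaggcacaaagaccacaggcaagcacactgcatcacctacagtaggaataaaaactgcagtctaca

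The last pair are strong peaks on repetitive windows without any of these matches, hence without capitals. They lay in an intron of Nid2, 883 bp downstream of its TSS (chr14:19769020-19769219), and in intergenic sequence 162 kb downstream of Cdh26 (chr2:178622782-178622981).
Nid2 locus: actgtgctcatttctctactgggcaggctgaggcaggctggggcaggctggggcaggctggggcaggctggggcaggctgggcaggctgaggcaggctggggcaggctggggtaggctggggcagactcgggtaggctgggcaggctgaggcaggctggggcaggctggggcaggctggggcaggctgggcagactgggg
Cdh26 locus: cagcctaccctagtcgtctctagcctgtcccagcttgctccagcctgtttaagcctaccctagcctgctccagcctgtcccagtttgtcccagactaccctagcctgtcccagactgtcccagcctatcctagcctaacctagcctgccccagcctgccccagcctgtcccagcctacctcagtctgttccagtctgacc

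ARID1B peaks at these loci were low and narrow. Peak height was the fold enrichment over background at the summit, as MACS2 gives it, with 1 background value for the whole list because local background was switched off. At E15.5 the median fold enrichment was 3.48 (quartiles 3.13–4.10, range 2.33–10.8), and at E18.5 it was 3.93 (quartiles 3.37–4.49, range 2.66–21.2). The 28881 distal ARID1B peaks kept at both stages that met a FOXP1 or TCF7L2 peak, called accompanied peaks here, had medians of 4.46 and 4.77, and the 5543 among them that met both TRs at both stages had a median of 5.26 at E15.5. Median width at E15.5 was 339 bp at ARID1B-alone loci, 578 bp at accompanied peaks and 845 bp where all 3 TRs were called at both stages.

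The share of kept distal ARID1B peaks that were free of FOXP1 and TCF7L2 fell with peak height. It was 44.8% of the 3591 peaks with an E15.5 fold enrichment of 2 to 3, 40.3% from 3 to 3.5, 33.9% from 3.5 to 4, 23.9% from 4 to 5 and 9.59% from 5 to 7. Of the 4805 peaks at 7 or more, only 57 were ARID1B-alone loci (1.19%, 0.917–1.53). Accompanied peaks were also wider, and a wider peak has more bases in which to meet another TR. The part of width in this gradient was not tested.

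**Figure D1:**
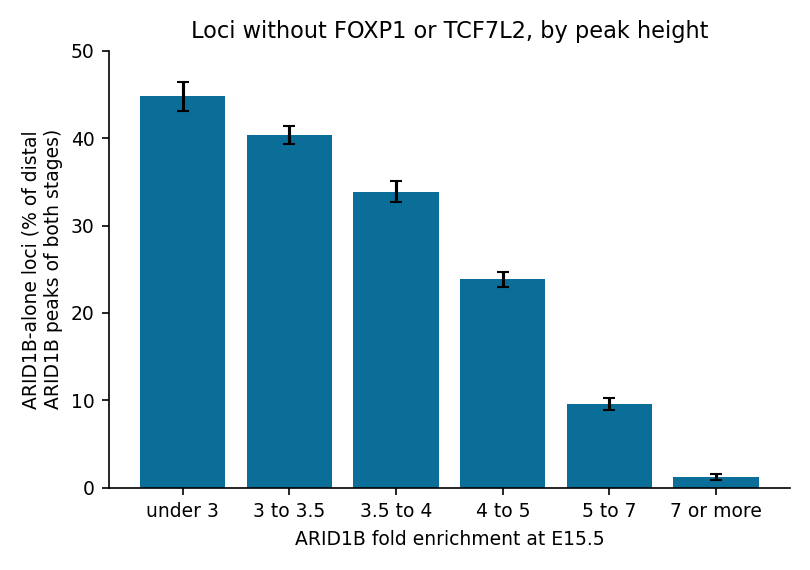
Share (%) of distal ARID1B peaks kept at both stages that met no FOXP1 or TCF7L2 peak, by E15.5 ARID1B fold enrichment at the summit, with 95% Wilson intervals for counting error. The share goes from 44.8% in the lowest bin to 1.19% in the highest.

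Absence of FOXP1 and TCF7L2 rested mostly on the FOXP1 list of E15.5. That list met 27394 of the 38817 kept peaks (70.6%) and was the only list that removed 8527 of them (22%). The TCF7L2 list of E18.5 met 48.7% and alone removed 1056 (2.72%), while the FOXP1 list of E18.5 and the TCF7L2 list of E15.5 alone removed 56 each. The FOXP1 libraries of E18.5 were also the shallowest by estimate: whichever was smaller, merged ChIP or merged input, held about 26.3 M reads there and 57.3–80.7 M for the other 5 lists. These sizes were derived from each list's background value with an assumed fragment length and genome size.

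The boundary of the set was a matter of few bases for some loci. The weakest ARID1B peaks inside it had a −log10 p of 4.01 in the E15.5 list and 4.63 in the E18.5 list. In all, 3 loci abutted a FOXP1 or TCF7L2 peak at a gap of 0 bp, 102 lay within 50 bp of one, and 158 accompanied peaks overlapped one by fewer than 50 bp, 3 of them by 1 bp. The median gap to the nearest FOXP1 or TCF7L2 peak was 10665.5 bp (quartiles 2690–31155), with 14.3% of loci within 1000 bp and 93.2% within 100 kb.

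Peaks free of FOXP1 and TCF7L2 were kept less often between stages. Of the 17562 distal E15.5 ARID1B peaks free of both TRs, 56.6% overlapped an E18.5 ARID1B peak, against 84.5% of the 34190 with FOXP1 or TCF7L2. The 7626 that were not kept had a median E15.5 fold enrichment of 3.04, below the 3.48 of those kept.

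Where the peak was kept, its position was similar at both stages, which the rule's demand for overlap partly fixes. The 9936 loci met 9856 distinct E18.5 peaks, 98.5% met exactly 1, and 84.0% overlapped it by at least 50% of both peaks. Summits lay a median of 56 bp apart (quartiles 24–110), and 72.2% were within 100 bp. Accompanied peaks had similar values. Their summits were a median of 56 bp apart, 68.9% within 100 bp, and 84.9% overlapped by at least 50% of both peaks.

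Heights changed little in the median, with an E18.5 to E15.5 ratio of fold enrichment of 1.09 at ARID1B-alone loci and 1.08 at accompanied peaks. A ratio of at least 1.5 was found at 391 loci (3.94%), beside 3.3% of all 38817 kept distal peaks. A ratio of 1/1.5 or lower was found at 20 loci (0.201%), beside 0.175% of all kept distal peaks. Both shares are close to those over all kept peaks.
Across loci the heights of the stages correlated with a Pearson r of 0.559 and a Spearman rho of 0.522 (n = 9936 loci), lower than the 0.926 and 0.840 at 28881 accompanied peaks, which span a wider range of heights. These points share libraries and each list's single background value, neighbouring peaks are not independent, and the values are a description only.

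**Figure D2:**
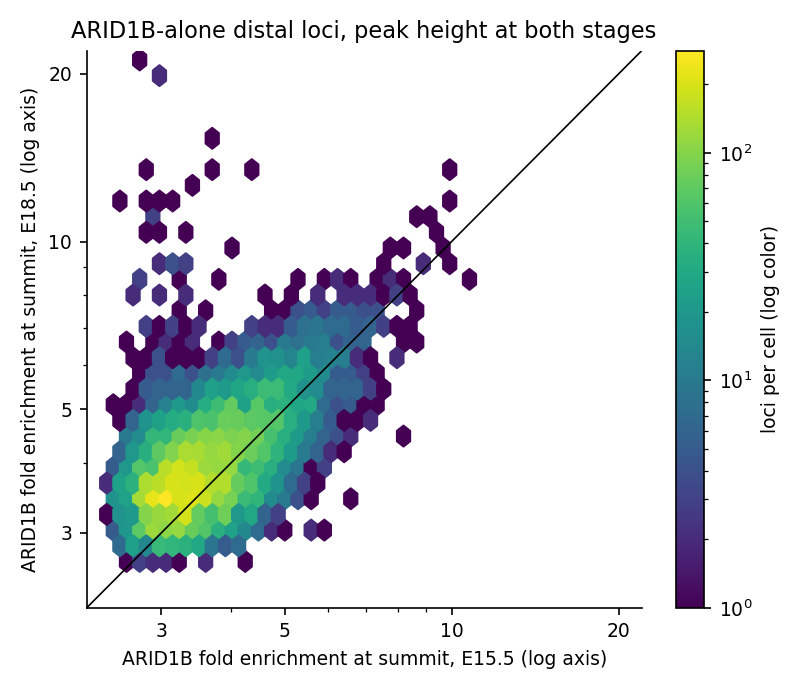
ARID1B fold enrichment at the summit at E15.5 (x) and E18.5 (y), both on log axes, for the 9936 ARID1B-alone loci; color gives the number of loci per hexagon and the line marks equal heights. Most loci lie near the line, and a group above it at low E15.5 heights reaches an E18.5 fold enrichment of 21.2.

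The largest rises came from E18.5 peaks that reached beyond the E15.5 locus. At 300 loci (3.02%) the E18.5 ARID1B peak itself met a FOXP1 or TCF7L2 peak, although the E15.5 peak did not. This held for 62 of the 63 loci with a ratio of at least 2, and at all 63 the E18.5 summit lay outside the E15.5 peak and over 200 bp from its summit. Of these 63 loci, 59 had an E18.5 peak that also spanned another distal E15.5 peak with FOXP1 or TCF7L2.
The highest ratio was at Ephb1, an ephrin receptor gene of axon guidance, where a peak of 2.77 at E15.5 (chr9:102040049-102040274) met a 1411 bp peak of 21.2 at E18.5 with its summit 714 bp away. At Nrg1, a neuregulin gene, the values were 2.95 and 19.9, and at Sema3a, a repulsive axon guidance cue, 2.95 and 19.5. Without the 300 loci, 280 of 9636 (2.91%) had a ratio of at least 1.5, the highest ratio was 2.04, the highest E18.5 fold enrichment was 13, and the correlations were 0.681 (Pearson) and 0.553 (Spearman).
The lowest ratio was in an intron of Csmd1, which went from 5.88 to 2.95 (ratio 0.501). Pag1, in an intron, went from 5.53 to 2.95, and Arpin, in intergenic sequence, from 8.19 to 4.63. Each of these 3 had its E18.5 summit within 67 bp of the E15.5 summit.

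The 12 loci that were strongest at both stages, ranked by the lower of the 2 fold enrichments, ran from 8.10 to 10.8 at E15.5 and from 8.28 to 13 at E18.5. The Kcnh7 locus stood first, at 9.97 at E15.5 (111 reads at the summit, 95% Poisson interval 8.22–12) and 13 at E18.5 (92 reads, lower bound 10.5). The locus in a UTR of Gprin3, which encodes a G protein-regulated inducer of neurite outgrowth, followed at 9.88 and 12.1. The Erbb4 intron was at 9.08 and 11.2, the Trim52 locus at 9.26 and 10.1, and the Pcdh9 intron at 8.46 and 11.1.
The Nid2 intron had the highest E15.5 value of all 9936 loci, 10.8 (120 reads, 8.95–12.9), and 8.28 at E18.5. The Cdh26 locus was at 9.44 and 9.54. The other 5 were near Manea (9.97 and 8.84), Fat4 (9.08 and 9.26), Prlhr (8.81 and 9.26), Pot1a (8.10 and 9.54) and in an intron of Trim36 (8.37 and 8.42). Of the 12, 7 were intergenic, 4 intronic and 1 in a UTR.

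The Nid2 and Cdh26 windows are built of tandem copies, as the sequences above show. A window was called tandem if at least 60% of its bases equalled the base at one fixed shift of 2 to 50 bp, a measure chosen after the Nid2 sequence had been seen. By it, 48 of the 9936 loci were tandem (0.483%, 0.365–0.640), beside 0.235% of accompanied peaks and 1.5% of windows 2000 bp to either side. Among loci with an E15.5 fold enrichment of 7 or more, 4 of 57 were tandem (7.02%, 2.76–16.7), beside 8 of 4748 accompanied peaks (0.168%). These 4 include Cdh26 and Nid2, the locus that prompted the measure.

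ARID1B-alone loci lay mainly in introns and between genes, far from TSSs. Summits fell in introns at 5182 loci (52.2%, 51.2–53.1), between genes at 44.4%, in coding exons at 72 (0.725%), in UTRs at 1.19% and in other exons at 1.5%. Among accompanied peaks the intronic share was 52.5% and the coding exon share 2.34%, and where all 3 TRs were called at both stages the coding exon share was 5.39%.
The nearest TSS of any transcript lay a median of 22964.5 bp away (quartiles 9094–54530), against 15100 bp for accompanied peaks, 9477 bp for peaks with all 3 TRs and 16311.5 bp for all distal ARID1B peaks. To the nearest protein-coding TSS the medians were 64578.5 bp and 34365 bp for ARID1B-alone loci and accompanied peaks. Over 100 kb from any TSS lay 1092 loci (11%) and 6.46% of accompanied peaks. The share of distal ARID1B peaks that were ARID1B-alone loci was 14.0% within 10 kb of a TSS, 20.4% from 10 to 50 kb, 24.7% from 50 to 100 kb and 28.9% beyond.

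The loci were spread over all 19 autosomes. They made up from 14.3% of distal ARID1B peaks on chromosome 11 to 23.7% on chromosome 16, with a mean density of 4.03 per Mb. The nearest other locus of the set was a median of 52884 bp away, and 48.7% had one within 50 kb. The longest run of consecutive distal ARID1B peaks that were all ARID1B-alone held 8 loci over 783 kb (chr8:58691730-59474592), with Galntl6, a glycosyltransferase gene, as the nearest gene. The megabase with most loci, 22 of 92 distal peaks, was on chromosome 5 at Auts2, a neurodevelopmental disorder gene. On chromosome 3 near Adgrl2, a latrophilin adhesion receptor gene, 20 of 43 distal peaks in a megabase were ARID1B-alone (46.5%).

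The loci were spread over many genes, most with 1 or a few. Of 20807 autosomal protein-coding genes, 3916 (18.8%) were the nearest protein-coding gene, by TSS, of at least 1 locus. Of these, 2014 had exactly 1, 528 had 5 or more, and 126 had 10 or more. The 528 genes accounted for 4310 loci (43.4%), and their median length was 207 kb, against 62.9 kb for genes with 1 to 4 loci and 24.9 kb for genes with distal ARID1B peaks but no locus of this set. The ARID1B-alone share of distal peaks itself moved with gene length, from 16% at genes under 50 kb to 19.1% at 50–200 kb, 21.4% at 200–500 kb and 26.6% at 500 kb or more.

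The 20 genes with most loci were nearest to 477 of them (4.80%). Of these, 257 lay inside the gene, from 18 of 18 at Nrg1 and at Macrod2 to 10 of 37 at Adgrl2 and 1 of 17 at Efna5. Among the teneurins, transmembrane proteins of synaptic partner recognition, Tenm2 was the nearest gene of 37 loci among its 108 distal ARID1B peaks (34.3%), Tenm3 of 30 among 100 and Tenm4 of 28 among 122 (23.0%). Of the latrophilins, which bind teneurins across the synapse, Adgrl2 had 37 among 96 and Adgrl3 26 among 57 (45.6%). The protein tyrosine phosphatase gene Ptprd had 25 among 76, the low-density lipoprotein receptor relative Lrp1b 22 among 50, and the immunoglobulin adhesion gene Lsamp 19 among 57.
Cadherin genes included Cdh8 with 21 among 67, Cdh6 with 17 among 37 (45.9%) and Pcdh9 with 18 among 73. Among guidance genes, the Slit receptor gene Robo1 had 23 among 76, the ephrin receptor gene Epha7 22 among 48 (45.8%) and the ephrin gene Efna5 17 among 47. Auts2 had 35 among 155 (22.6%), the splicing factor gene Rbfox1 22 among 81, Nrg1 18 among 45, Tle4 17 among 43, Macrod2 18 among 57 and Zfp608 25 among 136 (18.4%), shares near the 19.2% over all distal peaks for Auts2 and Zfp608.
Within a gene the loci varied in height: at Tenm4 the strongest at E15.5 (8.64, 1197727 bp upstream of the TSS) was at 6.45 at E18.5, another reached 11.9 at E18.5, and the median at E15.5 was 3.79. At Robo1 the strongest, 570143 bp upstream, was at 6.50 at E15.5 and 7.43 at E18.5, over a median of 3.39.

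Gene groups differed in how often their distal ARID1B peaks were ARID1B-alone, set beside the 19.2% over all distal peaks. Neuronal adhesion genes had 444 of 1513 (29.3%, 27.1–31.7), beside 26.6% (25.5–27.8) at all genes of 500 kb or more. At least 1 locus was found at 37 of 38 genes, beside 18.8% of all genes and 93.1% of genes of 500 kb or more. Glutamate and GABA receptor genes had 81 of 277 (29.2%, 24.2–34.9), among them Grik2, with 12 of 34. Axon guidance genes had 206 of 751 (27.4%, 24.4–30.7), with a locus at 24 of 25 genes, where the list's median length was 321 kb and 80.1% of all genes of 200–500 kb had one.
Genes of deep-layer and subplate identity had 83 of 315 (26.3%, 21.8–31.5), with a locus at 12 of 14 genes. The list's median length was 122 kb. Of all genes of 50–200 kb, 39.3% had a locus, and the share of their distal peaks was 19.1%. Tle4 had 17 of its 43 distal peaks, Foxp2, a forkhead gene of corticothalamic neurons, 11 of 28, and Zfpm2 11 of 25. Sox5, which regulates deep-layer neuron migration, had 13 of 73 (17.8%). Ion channel genes had 84 of 348 (24.1%, 19.9–28.9), among them Ryr2, with 11 of 20, and Kcnh7, with 9 of 22. Interneuron genes had 50 of 208 (24.0%, 18.7–30.3), led by Nr2f1 with 14 of 47. Median lengths were 395 kb for the receptor list, 310 kb for ion channels and 12.8 kb for interneuron genes. The share was 21.4% at all genes of 200–500 kb, inside the ion channel interval, and 16% at all genes under 50 kb.

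Most other groups lay below the share over all distal peaks. Radial glia, BAF, Wnt and proneural lists had median lengths under 50 kb, and the share at all genes under 50 kb was 16%. The radial glia, BAF and Wnt intervals include that 16%. Median lengths were 172 kb for upper-layer genes and 223 kb for NFI genes, and the shares were 19.1% at all genes of 50–200 kb and 21.4% at 200–500 kb. Upper-layer identity genes had 52 of 371 (14.0%, 10.9–17.9), although Rorb, a nuclear receptor gene of layer 4, had 11 of 19. Radial glia genes had 49 of 334 (14.7%, 11.3–18.9), BAF complex genes 26 of 190 (13.7%, 9.51–19.3), Wnt pathway genes 27 of 219 (12.3%, 8.61–17.3) and NFI genes 18 of 159 (11.3%, 7.28–17.2).
Arid1b itself was the nearest gene of 8 loci among 54 distal peaks and Bcl11a, a BAF subunit gene, of 10 among 60, while Tcf7l2 had 6 among 28. Intermediate progenitor and proneural genes had 5 of 91 (5.49%, 2.37–12.2), with 1 locus each at Neurog2, Insm1 and Elavl4 and 2 at Neurod6.
The remaining lists gave few peaks: 9 of 52 for astrocyte and oligodendrocyte genes (17.3%, 9.38–29.7), 1 of 33 for endothelial, mural and microglial genes (3.03%, 0.537–15.3) and 8 of 26 for heart, liver and muscle genes (30.8%, 16.5–50), 7 of these last at Ins1. The intervals of the interneuron, BAF, glial and heart, liver and muscle lists include the 19.2%. The lists differ in gene length, with medians of 824 kb for adhesion genes, 13.2 kb for radial glia genes and 3.70 kb for proneural genes, and the part of length in these shares was not tested. The nearest TSS is a label of position and does not show which gene a locus acts on.

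**Figure D3:**
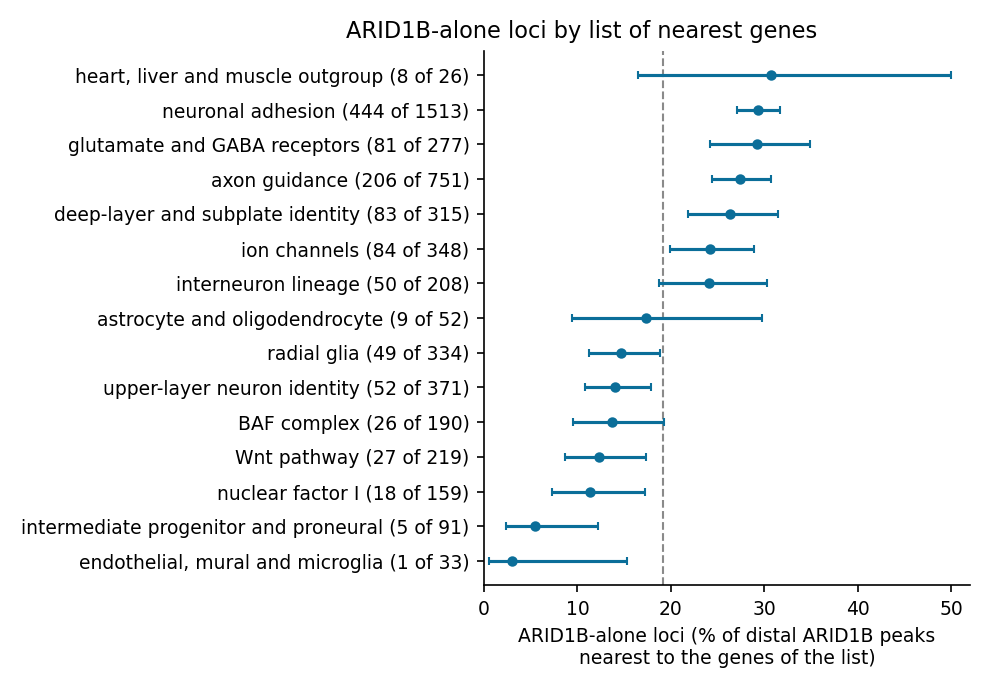
Share (%) of each gene group's distal autosomal E15.5 ARID1B peaks that were ARID1B-alone at both stages, with 95% Wilson intervals for counting error and the dashed line at the 19.2% over all distal peaks. Neuronal adhesion (29.3%) and axon guidance (27.4%) lie above the line and proneural genes (5.49%) below it. The highest point is the heart, liver and muscle list (30.8%, 8 of 26) and the lowest the endothelial, mural and microglial list (3.03%, 1 of 33).

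Windows at the loci were lower in GC and in CpG than those of accompanied peaks, and higher than their own flanks. Median GC content was 43.5%, against 42% in windows 2000 bp to either side, called flanks here, 48.5% at accompanied peaks and 53.5% where all 3 TRs were called. No CpG at all was found in 18.2% of windows, against 9.17% of accompanied peaks, 3.45% with all 3 TRs and 27.9% of flanks. Repeat-masked bases filled over 50% of the window at 2.74% of loci and 17.9% of flanks.

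The E-box CATCTG was the commonest of the 22 motifs searched on both strands. It was present in 41.3% of the windows (40.3–42.2), 14.8% of flanks, 35.1% of accompanied peaks and 34.4% of all distal ARID1B peaks. At distal peaks with ARID1B alone at E15.5 only it was in 32.3% (31.2–33.3), below accompanied peaks. The higher share was thus not shared by all distal peaks free of FOXP1 and TCF7L2. The E-box CAGCTG was in 21.4% of windows and 7.39% of flanks, but in a similar 21.7% of accompanied peaks. Either E-box was in 55.6% of windows (54.6–56.6), 20.9% of flanks, 50.4% of accompanied peaks and 46.8% of peaks with ARID1B alone at E15.5 only. The other E-boxes of the search were close to their flanks: CACCTG in 11.5% of both, and CACGTG in 2.01% and 2.09%.

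The NFI half-site TTGGCA was in 27.3% of windows against 10.1% of flanks and 24.5% of accompanied peaks. The homeobox core TAATTA was in 14.1%, 7.47% and 10.4%, the MEIS motif TGACAG in 24.4%, 13% and 22%, and the forkhead motif TGTTTAC in 4.97%, 3.33% and 4.04%. At peaks with all 3 TRs these 4 motifs were at 19.8%, 5.85%, 17.9% and 3.05%. With ARID1B alone at E15.5 only they were at 22.4%, 10.7%, 20.6% and 4.22%. An E-box of either kind, an NFI half-site or a homeobox core was in 74.1% of ARID1B-alone windows, 34.4% of their flanks, 66.8% of accompanied peaks and 56.7% of peaks with all 3 TRs.

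Matches to CTCF, an insulator and loop anchor factor, and to the GC-rich SP/KLF motif were rare at the loci. The CTCF consensus matched in 24 windows (0.242%, 0.162–0.359), 0.191% of flanks, 1.36% of accompanied peaks, 2.47% of peaks with all 3 TRs and 1.29% of all distal peaks. The CTCF share of accompanied peaks fell with height, from 2.72% at an E15.5 fold enrichment of 2 to 3 to 0.552% from 5 to 7 and 0.147% at 7 or more. At ARID1B-alone loci it lay between 0.0976% and 0.355% in the bins below 7, lower than at accompanied peaks in each. At 7 or more 1 of 57 ARID1B-alone loci matched (1.75%). With ARID1B peaks limited to a −log10 p of at least 15 the order turned, at 0.420% of 953 ARID1B-alone loci and 0.381% of accompanied peaks. The SP/KLF motif GGGCGGG was in 1.04% of windows, 0.795% of flanks, 4.35% of accompanied peaks and 10.6% of peaks with all 3 TRs. Peaks with ARID1B alone at E15.5 only were also low in both, at 0.354% for CTCF (0.243–0.515) and 1.53% for SP/KLF. RFX matches were in 64 windows (0.644%), 0.196% of flanks and 0.949% of accompanied peaks. The TCF/LEF motif ATCAAAG, which TCF7L2 binds, was in 3.05% of windows and 3.93% of flanks, in 2.83% of accompanied peaks and 3.35% of their flanks, and in 2.40% of peaks with all 3 TRs. A match is a description of letters, and its absence says nothing about a factor's presence.
Letters of different motifs can coincide: the CTCF match overlapped a CATCTG in 10 of the 15 windows holding both, the MEIS motif overlapped CATCTG in 232 of 1056 and CAGCTG in 198 of 634, and the NFI half-site overlapped CATCTG in 66 of 1005.

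**Figure D4:**
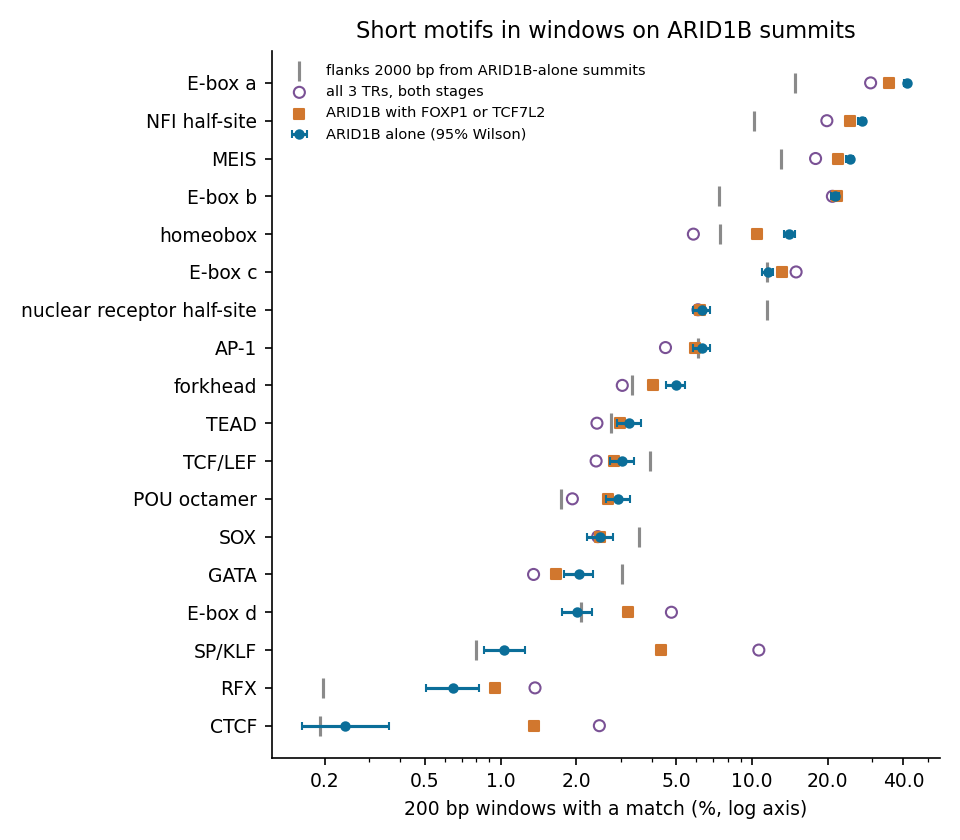
Share (%, log axis) of 200 bp windows with at least 1 match on either strand, at ARID1B-alone summits (95% Wilson intervals), their flanks, accompanied peaks and peaks with all 3 TRs; the E-box labelled a stands for CATCTG, the kind labelled b for CAGCTG, the kind labelled c for CACCTG and the kind labelled d for CACGTG. The first of these is in 41.3% of ARID1B-alone windows and 14.8% of flanks, while the CTCF consensus is in 0.242% and 0.191%.

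CATCTG was more frequent at stronger loci up to a fold enrichment of 7, and in the 5 bins below that it was more frequent than at accompanied peaks of equal height. By E15.5 fold enrichment, it was in 30.4% of loci from 2 to 3, 37.2% from 3 to 3.5, 42.8% from 3.5 to 4, 49.2% from 4 to 5 and 56.7% from 5 to 7. Accompanied peaks in these bins had 19.2%, 22.7%, 26.7%, 33.0% and 42.9%. At 7 or more the shares were 52.6% of 57 loci and 54.4% of accompanied peaks. GC content also differed within bins (43% and 48.5% from 4 to 5), as did the median distance to a TSS (25041.5 and 15021 bp). CATCTG shares were close in introns (41.2%) and between genes (40.7%), and ran from 36.9% to 44.9% over the chromosomes. By E18.5 height the share of loci with CATCTG went from 35.3% in the lowest bin to 52.5% from 5 to 7. At 7 or more it was 41.7% of 156 loci (34.2–49.5), where accompanied peaks had 52.1% (50.8–53.4), so both the rise and the order turned in that bin. These windows were centred on E15.5 summits, while some of the highest E18.5 values belong to peaks with summits outside the E15.5 peak. In windows on E18.5 summits CATCTG was in 41.0% of loci.

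E-box matches gathered near the summits. CATCTG had 3.76 matches per 1000 positions in the 20 bp before the summit and 1.70 at 80 to 100 bp before it, and 63.4% of its matches in the window lay within 50 bp of the summit, against 55.7% for the NFI half-site and 52.7% for the homeobox core.

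**Figure D5:**
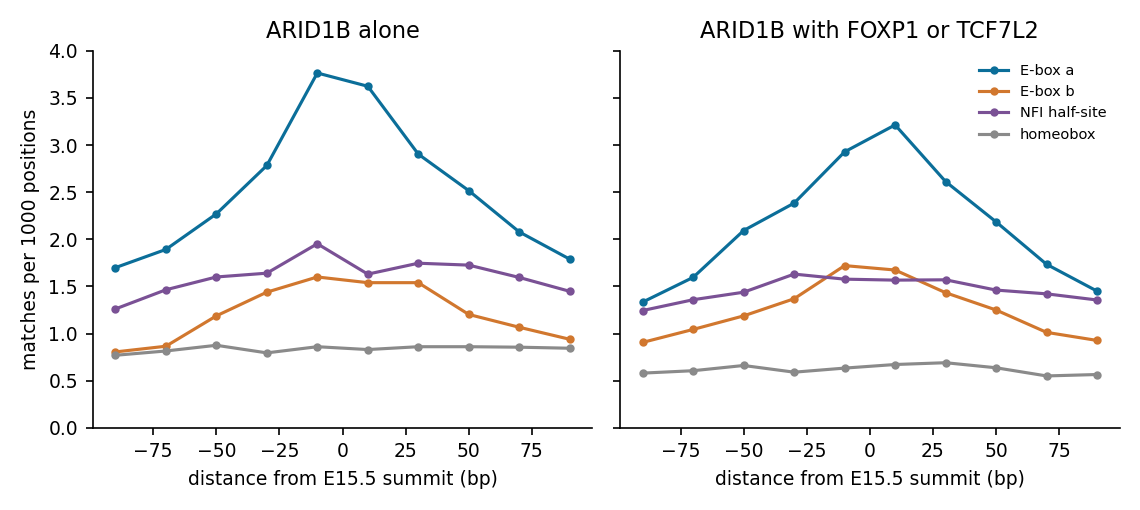
Matches per 1000 positions against distance (bp) from the E15.5 ARID1B summit, at ARID1B-alone loci and accompanied peaks, for 4 motifs, where E-box a stands for CATCTG and the kind labelled b for CAGCTG. The first of these at ARID1B-alone loci goes from 1.70 at the window's edge to 3.76 beside the summit.

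A count of all 8-letter words, added after the motif results had been seen, gave the flanking letters of the E-box. Of 6008 words in at least 100 windows, the one with the highest ratio to flanks was GCCATCTG (reverse complement CAGATGGC), in 825 windows (8.30%) and 0.845% of flanks, a ratio of 9.82. It was in 7.53% of accompanied peaks. Next came CCATCTGG with a ratio of 9.36, CCATCTGC with 8.75 and the palindrome CCATATGG with 7.37, which holds CATATG, an E-box kind not among the 22 motifs searched. Of the 20 highest words, 10 held CATCTG, 4 CATATG, 3 CAGCTG and 2 TAATTA. The Kcnh7, Trim52 and Erbb4 windows printed above each carry CATCTG and CAGCTG, as do the Gprin3 and Pcdh9 windows, while 4 of the 12 strongest (Cdh26, Prlhr, Nid2 and Pot1a) hold neither.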

How the data were processed

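Libraries were single-read 50-base ChIP-seq of cortex from WT mouse embryos of both stages. The authors aligned reads with BWA mem 0.7.15 to GRCm38 (mm10) and called narrow peaks with MACS2 2.2.7 (version per the labels) against matched input with replicates merged. The treatment of duplicates: not given in the sources used. The deposited lists give, for each peak, a fold enrichment at the summit (a ratio to background), a −log10 p, a −log10 q and a score. The deposited score was not used, and the lowest −log10 q over the 6 lists was 2.08. Since deposited fold values step in whole reads, reads at a summit were recovered from them (for ARID1B, a background of 8.63 reads for the E15.5 list and 6.13 for the E18.5 list), and Poisson intervals rest on these reads with the background taken as exact.

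From the lists, overlaps of at least 1 bp were taken with Python 3.11.15, numpy 2.4.6 and pandas 2.3.3. TSSs, exons and introns came from GENCODE vM21, and sequence and repeat masking from the RefSeq GRCm38.p6 genome. Motifs were searched on both strands in 200 bp windows on E15.5 summits and in 2 flank windows centred 2000 bp away, and the CTCF consensus, as the study lists it, with up to 4 mismatches. Shares carry 95% Wilson intervals. The scripts were tested on simulated data. The loci, motifs and gene lists were chosen with earlier results of these data known. Named were the 12 loci with the highest lower-of-2 fold enrichment, the 20 protein-coding genes nearest (by TSS) to most loci, up to 4 genes per list, and for CTCF and the 3 motifs with the highest ratio to flanks the 2 strongest loci with a match; loci with the highest and lowest stage ratios, densest megabases and the longest run were named after their values were seen. Ctgf was not matched by symbol, and some listed genes are not reported here. In all, 12 alternatives to the choices above were tried, 2 of them chosen after seeing the data. No chromosome 18 sequence is printed.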

Additional observations from a re-analysis of the deposited data

Results flagged for a closer look

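Chromosome X lies outside the autosomal comparisons and carries a signal of the same kind. On it, 144 of 432 distal ARID1B peaks at E15.5 met the same conditions (33.3%, 29.1–37.9), with a median E15.5 fold enrichment of 3.84. This is 1 chromosome with 1 peak list per stage, and the difference from the autosomes was not tested.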

How the results depend on the processing

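No paired analysis was possible because only the peak lists of merged replicates, 1 per TR and stage, were used here, and for the same reason no replicate could be left out. Over 12 settings, 52 of 87 recomputed values stayed within the interval of the reported value and 35 moved. With ARID1B peaks limited to a −log10 p of at least 15 (953 loci), the share of distal peaks was 5.57%, introns 46.0%, TSS distance 25980 bp, E15.5 fold enrichment 5.17, stage ratio 1.10, CTCF 0.420%, CAGCTG 25.1%, CATCTG 53.5% and GC 42%. With FOXP1 and TCF7L2 peaks so limited (26181 loci), these were 50.6%, 53.6%, 19409 bp, 3.84, 1.09 (1.085 against 1.091 as reported), 0.554%, not moved for CAGCTG, 38.0% and 46%. With no such peak within 1000 bp (8520 loci), the share was 16.5%, introns 51.1%, CATCTG 42.5% and TSS distance 23725.5 bp. With stages overlapping by at least 50% of both peaks (8345 loci), the share was 16.1%, introns 50.8%, CATCTG 43.7% and CAGCTG 22.3%. Distal taken as 2000 bp to either side of a TSS gave 20.3% and 24467 bp, and protein-coding TSSs only gave 18.7% and 22077 bp. Windows of 100 bp gave CTCF 0.141%, CAGCTG 13.3% and CATCTG 27.1%, CTCF with up to 3 mismatches 0.0503%, and distance to protein-coding TSSs 64578.5 bp. With the E18.5 peak also free of FOXP1 and TCF7L2, chosen after seeing the data, the share was 18.6%.

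The E-box CATCTG was more frequent, GC lower and TSSs farther at ARID1B-alone loci than at accompanied peaks under all 5 alternatives to the peak rule for which both sets were compared. For CTCF the order turned with ARID1B peaks at a −log10 p of at least 15, where 0.420% of 953 loci and 0.381% of accompanied peaks matched. Depth also bears on absence, since a FOXP1 or TCF7L2 peak below its list's threshold counts as absent. How many loci this adds was not tested.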

Other observations

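NFI half-sites were less frequent in ARID1B-alone windows with an E-box CATCTG or CAGCTG (25.5% of 5527, 24.4–26.7) than in windows with neither (29.5% of 4409, 28.2–30.9). At distal peaks with ARID1B alone at E15.5 only, the shares were 20.4% and 24.2%, at accompanied peaks 24.5% and 24.5%, and where all 3 TRs were called at both stages 23.6% and 16.8%. These differences were not tested.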
